A study of Mus musculus with 9 samples.

Results

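Cytotoxic lymphocyte effector genes encode the machinery with which CD8 T cells and natural killer cells kill a target, and 10 of them were followed by gene symbol, out of 54532 entries listed for each library. They were the CD8 coreceptor chains Cd8a and Cd8b1, the activating receptor Klrk1, the granule proteases Gzma, Gzmb and Gzmk, the pore-forming protein Prf1, the granule membrane protein Nkg7, the cytokine Ifng and the death ligand Fasl. The samples were tumours formed by B16-F10, a mouse melanoma cell line, under the skin of C57BL/6 mice and taken on day 16. The melanoma cells carried 1 of 3 short hairpin RNAs: Fbxo38 hairpin 1 (shFBXO38#1), Fbxo38 hairpin 2 (shFBXO38#2) or a control hairpin (shcontrol), with 3 bulk RNA-seq libraries per hairpin. The comparison addresses whether a knockdown in the tumour cells went with a different level of killer cell transcripts in the tumour. Groups were taken from the sample titles, because the genotype labels of the 6 Fbxo38 hairpin libraries name FBXO38 to FBXO43 in turn. The labels record no further treatment. Whether each hairpin line was a clone or a pool, and whether replicates came from separate animals, is not given in the sources used here, so a p-value here reflects only how far these libraries spread, and that spread may be technical.

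The hairpins were in the melanoma cells, whereas the 10 genes are known from lymphocytes of the host. A CD8 T cell recognises a peptide on MHC class I with its T cell receptor and the CD8 coreceptor, then releases granules in which perforin opens the target membrane to granzymes. The same cells secrete interferon gamma and can display Fas ligand, and natural killer cells share most of this machinery. In B16-F10 tumours such cells are usually a small part of the tissue, which is mostly pigmented melanoma cells. In bulk RNA a smaller number of cells and less RNA per cell cannot be told apart.

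The start regions of 3 genes are shown: Gzmb and Gzma, granzymes of different specificity, and Ifng, the cytokine of the set. RefSeq promoter sequence (GRCm38.p6) was matched by symbol for 9 of the 10 genes, without Cd8b1. Each sequence is the 120 bases before the RefSeq start, on the gene's own strand. Capitals mark the letters TGTGGT, the core that RUNX factors bind, or its reverse complement, in Gzmb and Gzma, and the TATA box letters TATAAA in Ifng. Gzmb lies at chr14:56262335-56262454 (minus strand), Gzma at chr13:113100982-113101101 (minus strand) and Ifng at chr10:118440926-118441045 (plus strand).
Gzmb: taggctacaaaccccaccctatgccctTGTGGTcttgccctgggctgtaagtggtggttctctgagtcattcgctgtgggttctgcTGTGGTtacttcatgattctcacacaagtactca
Gzma: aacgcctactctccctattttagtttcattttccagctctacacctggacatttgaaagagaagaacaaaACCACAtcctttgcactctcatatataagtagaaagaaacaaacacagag
Ifng: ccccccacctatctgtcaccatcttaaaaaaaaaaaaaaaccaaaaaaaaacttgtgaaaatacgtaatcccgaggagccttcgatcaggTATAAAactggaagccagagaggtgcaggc

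Over the 250 bases before each start and on both strands, TGTGGT occurred in 5 of the 9 promoters, those of Klrk1, Nkg7, Prf1, Gzma and Gzmb. It occurred in 14.05% of all 32851 promoters. Gzmb held it at 34 and 93 bases before the start and Gzma at 50. The T-box letters GGTGTGA occurred in Nkg7 and Gzmk (3.33% of all promoters), the NFAT letters GGAAAA in Fasl and Gzma (20.4%), the STAT letters TTCNNNGAA in Nkg7 and Ifng (7.02%) and TATAAA in Ifng (12.4%). A match describes letters and not a bound site.

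Library totals ran from 15322163 to 17342554 counts, and 14193 genes passed the filter on low counts. Fbxo38 itself stood at 35.1, 20.96 and 22.0 CPM (counts scaled to library size) in the libraries labelled hairpin 1, at 20.9, 11.4 and 11.9 CPM with hairpin 2 and at 21.6, 31.3 and 30.7 CPM in control. It was lower in all hairpin 2 libraries than in any control library (log2 fold change -0.92, SE 0.29, edgeR adjusted p = 0.254), whereas the libraries labelled hairpin 1 showed no detectably lower level (-0.10, SE 0.28), and are called by their label for that reason. The melanoma markers (Pmel, Mlana, Tyr, Tyrp1, Dct, Mitf, Sox10) summed to 21540 to 25808 CPM in the libraries labelled hairpin 1, 20450 to 25681 CPM with hairpin 2 and 21351 to 26901 CPM in control. A pair of libraries stood apart in a principal component analysis: PC1 explained 35.8% of variation, with scores of 60.6 for replicate 1 labelled hairpin 1 and -54.8 for replicate 2 of hairpin 2. Globin transcripts took 2.04% of the counts in replicate 2 of hairpin 2 and at most 0.481% elsewhere. The members' comparisons of each hairpin with control are given with and without them.

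All 10 genes were scarce. Their counts summed to between 21 and 670 per library, and 6 of them (Cd8a, Cd8b1, Klrk1, Gzmb, Prf1 and Nkg7) passed the filter. No member passed the threshold in any comparison, where 0% of all tested genes did. For none did the groups fail to overlap, against 2.97% to 20.9% of all tested genes by comparison. Counting intervals, where given, cover counting error only.

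The coreceptor chains were read first, since they mark CD8 T cells. Cd8a (ENSMUSG00000053977.13, GRCm38 chromosome 6, 71373427 to 71379173, plus strand) encodes the alpha chain, which some dendritic cells also carry. It stood at 4.67, 1.75 and 1.26 CPM in the libraries labelled hairpin 1, at 0.376, 0.298 and 3.29 CPM with hairpin 2, and at 1.37, 3.98 and 1.25 CPM in control. In each group 1 library stood well above the other pair, and the 3 groups overlapped. The log2 fold change was 0.23 (SE 0.90) for the libraries labelled hairpin 1 and -0.73 (SE 0.92) for hairpin 2, each against control, with edgeR adjusted p of 1.0 and 0.748.

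Cd8b1 (ENSMUSG00000053044.8, the same strand of chromosome 6, 71322788 to 71337494) encodes the beta chain, which is closer to a mark of conventional CD8 T cells. It stood at 2.37, 1.34 and 0.378 CPM in the libraries labelled hairpin 1, at 0.251, 0.179 and 2.62 CPM with hairpin 2, and at 0.358, 1.70 and 0.773 CPM in control. The highest library in each group was the one that was highest for Cd8a. Cd8b1 made up 33.6%, 43.5% and 23.1% of the counts of both chains in the libraries labelled hairpin 1, 40.0%, 37.5% and 44.3% with hairpin 2, and 20.7%, 29.9% and 38.2% in control. The widest of their 95% Clopper-Pearson intervals ran from 8.52% to 75.5%, so a different balance of the chains was not detectable at this depth. The 9 listed markers of the dendritic cells that can carry Cd8a summed to 257 to 345 CPM in the libraries labelled hairpin 1, 219 to 302 CPM with hairpin 2 and 266 to 299.9 CPM in control, most of it Cadm1, and 0 of the 8 tested passed the threshold. Irf8 (5.12 to 62.8 CPM over the libraries) and Wdfy4 (1.07 to 12.5 CPM) were highest in the same library of each group as Cd8a. Cadm1 was instead highest in replicate 1 of control, replicate 2 labelled hairpin 1 and replicate 1 of hairpin 2. Xcr1 and Clec9a, which mark these cells most closely, reached no more than 1.06 and 0.83 CPM. Within control, Clec9a and Batf3 were lowest in replicate 2, where Cd8a was highest. Both were highest in replicate 1 labelled hairpin 1, as Cd8a was. With hairpin 2, Clec9a was highest in replicate 3, as Cd8a was, and Batf3 in replicate 1. The part of such cells in the Cd8a level was not tested. Of the 50-base stretches of the Cd8b1 transcript, 6.00% also occur in other genes, so its counts carry some uncertainty.

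Klrk1 (ENSMUSG00000030149.15, chromosome 6, 129610323 to 129623864, minus strand) encodes NKG2D, a receptor on CD8 T cells and natural killer cells for ligands on stressed or transformed cells. It stood at 2.37, 0.403 and 0.378 CPM in the libraries labelled hairpin 1, at 0.125, 0 and 0.669 CPM with hairpin 2, and at 0.537, 1.44 and 0.475 CPM in control. The 0 in replicate 2 of hairpin 2 allows a level of up to 0.179 CPM, taken as 3 counts. Klrk1 had the lowest log2 fold change of the tested members with hairpin 2, at -1.59 against control (SE 1.11, 95% interval -4.07 to 0.89, edgeR unadjusted p = 0.183, adjusted p = 0.53) and at -1.97 against the libraries labelled hairpin 1 (SE 1.10, unadjusted p = 0.105, adjusted p = 0.499). Hairpin 2 replicate 3 lay above both of the lower control libraries, so the groups overlapped. The exact two-sided permutation p was 0.3 for both comparisons, where 0.1 is the smallest that 3 against 3 libraries allow. Among 7 listed adaptors and ligands of this receptor, 5 were tested and none passed the threshold. Raet1e, a ligand gene, had an unadjusted p of 0.0168 in the libraries labelled hairpin 1 (log2 fold change 1.24, SE 0.44, edgeR adjusted p = 1.0).

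Prf1 and Gzmb were the most abundant members by CPM, averaged over each group. Prf1 (ENSMUSG00000037202.6, chromosome 10, 61297833 to 61304680, plus strand) stood at 12.5, 6.79 and 1.89 CPM in the libraries labelled hairpin 1, at 1.69, 0.417 and 6.51 CPM with hairpin 2, and at 2.27, 8.29 and 2.50 CPM in control. Gzmb (ENSMUSG00000015437.5, chromosome 14, 56258838 to 56262260, minus strand), a protease that activates caspases in the target, stood at 9.58, 6.38 and 0.820 CPM in the libraries labelled hairpin 1, at 1.57, 0.119 and 4.56 CPM with hairpin 2, and at 2.15, 12.1 and 1.37 CPM in control. Both genes were high in the same 4 libraries: replicates 1 and 2 labelled hairpin 1, replicate 3 of hairpin 2 and replicate 2 of control. The Gzmb counts spanned 2 to 25 in the lower pair of hairpin 2 libraries and 185 in the highest control library. Within hairpin 2 the highest Gzmb level was 38.3 times the lowest, which rests on 2 counts in replicate 2, and 2.91 times without that library. The log2 fold change of Gzmb against control was 0.11 (SE 1.23) in the libraries labelled hairpin 1 and -1.31 (SE 1.28) with hairpin 2, and that of Prf1 was 0.70 (SE 0.98) in the libraries labelled hairpin 1 and -0.59 (SE 1.00) with hairpin 2. All 4 edgeR adjusted p lay at 0.67 or above.

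Gzma (ENSMUSG00000023132.8, chromosome 13, 113093825 to 113100981, minus strand) encodes a granzyme with trypsin-like specificity. It had 17, 16 and 0 counts in the libraries labelled hairpin 1, 2, 1 and 9 counts with hairpin 2, and 4, 4 and 5 counts in control. As for Gzmb, the lowest library labelled hairpin 1 was replicate 3 and the highest with hairpin 2 was replicate 3, while in control Gzma lay between 0.238 and 0.297 CPM and Gzmb between 1.37 and 12.1 CPM. Gzma made up 9.50%, 14.4% and 0% of the counts of Gzma plus Gzmb in the libraries labelled hairpin 1, 7.41%, 33.3% and 10.7% with hairpin 2, and 10%, 2.12% and 17.9% in control. The groups overlapped, and the 33.3% is 1 of 3 counts (95% Clopper-Pearson interval 0.840% to 90.6%). Gzmk (ENSMUSG00000042385.14, chromosome 13, 113171608 to 113225908, minus strand), a granzyme of memory-like and early effector T cells, had 11, 0 and 3 counts in the libraries labelled hairpin 1, 1, 0 and 6 with hairpin 2, and 0, 4 and 2 in control.

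Nkg7 (ENSMUSG00000004612.9, chromosome 7, 43437073 to 43438249, plus strand) encodes a membrane protein of cytotoxic granules that takes part in their release. It stood at 5.56, 1.41 and 0.505 CPM in the libraries labelled hairpin 1, at 0.878, 0.119 and 3.83 CPM with hairpin 2, and at 0.298, 2.81 and 1.01 CPM in control. Its log2 fold change was positive for both hairpins against control, at 0.87 (SE 1.20) for the libraries labelled hairpin 1 and 0.24 (SE 1.21) for hairpin 2, with edgeR adjusted p of 1.0 and 0.944. Without replicate 3 of hairpin 2, the log2 fold change of hairpin 2 was -1.45. Among the counts of Nkg7 plus Prf1, the share of Nkg7 was 30.8%, 17.2% and 21.1% in the libraries labelled hairpin 1, 34.1%, 22.2% and 37.1% with hairpin 2, and 11.6%, 25.3% and 28.8% in control, so the groups overlapped.

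The effector molecules that act outside the granule were close to the limit of detection. Ifng (ENSMUSG00000055170.4, chromosome 10, 118441046 to 118445892, plus strand), the cytokine that raises antigen presentation in tumour cells and activates macrophages, had 8, 4 and 0 counts in the libraries labelled hairpin 1, 0, 1 and 15 with hairpin 2, and 0, 3 and 6 in control. An annotated gene on the same strand, Gm49751, overlaps an exon of Ifng and holds 13.5% of its 50-base stretches, so reads of both could be mixed. Fasl (ENSMUSG00000000817.10, chromosome 1, 161780689 to 161788495, minus strand), which triggers death through Fas, had 8, 1 and 3 counts in the libraries labelled hairpin 1, 0, 0 and 7 with hairpin 2, and 1, 3 and 0 in control. Each count of 0 allows a level of up to about 3 counts, between 0.178 and 0.202 CPM by library. Gzma, Gzmk, Ifng and Fasl did not pass the filter, so no log2 fold change is given for them, and the exact two-sided permutation p for each hairpin against control lay between 0.3 and 1.0.

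**Figure D1:**
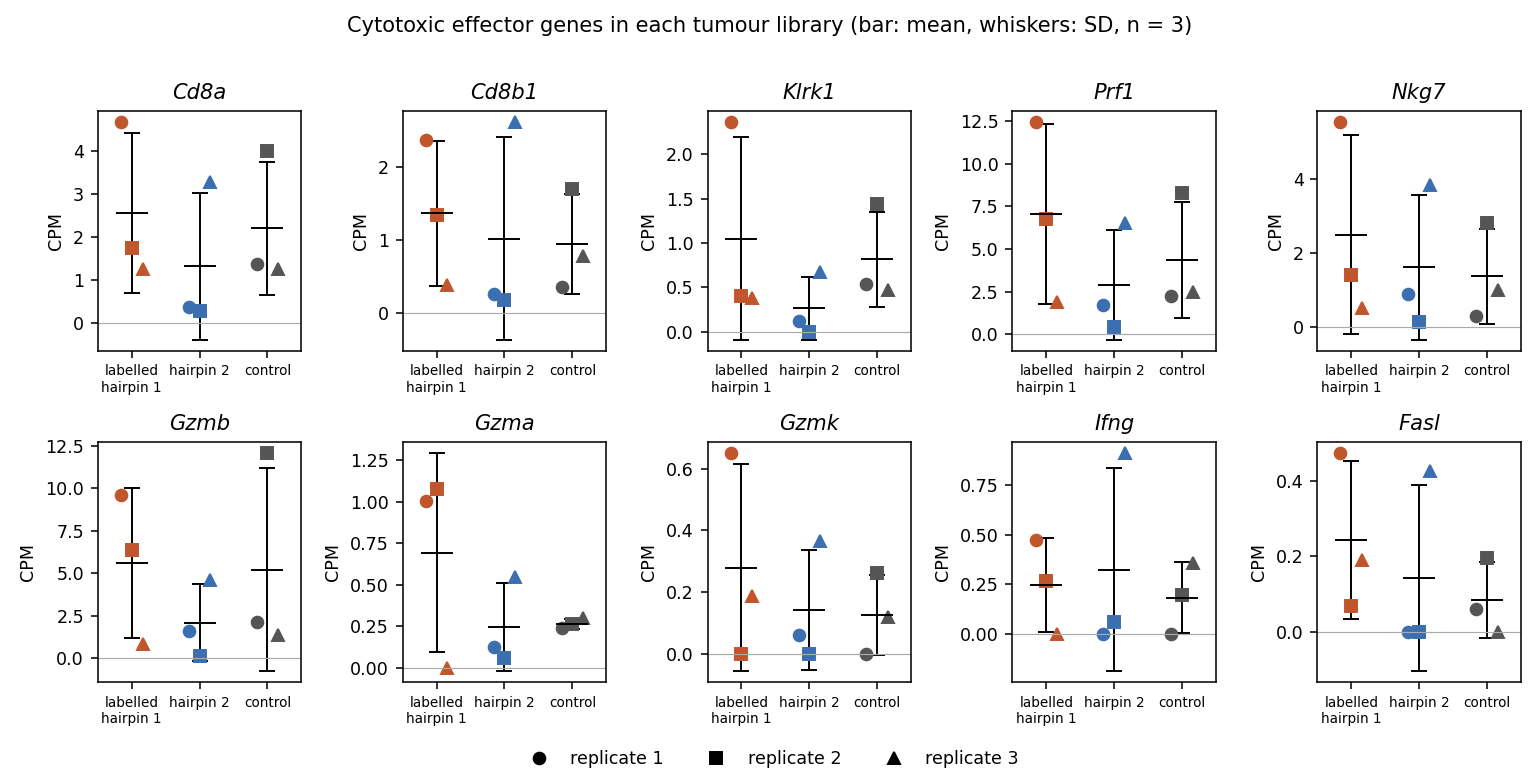
CPM of the 10 genes (y axis, linear, own scale for each gene) in each library, by group on the x axis; each point is a library, its shape gives the replicate number, the bar is the mean and the whiskers are the SD (n = 3). In hairpin 2 the triangle (replicate 3) is the highest point in all 10 panels.

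For the libraries labelled hairpin 1 against control, all 6 tested members had a positive log2 fold change, from 0.11 to 0.87, with a median of 0.46 beside 0.01 over all tested genes. Of all tested genes 52.6% were positive. None of the 6 passed an edgeR adjusted p of 0.05 (0% of all tested genes did) and none had an unadjusted p under 0.05 (3.17% did). For none of the 10 did the groups fail to overlap, against 8.38% of all tested genes. Without replicate 1 labelled hairpin 1, all 6 were negative, from -0.024 for Prf1 to -1.06 for Klrk1.

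With hairpin 2 against control, 2 of the 6 were positive (Cd8b1 at 0.11 and Nkg7 at 0.24) and 4 negative, with a median of -0.66 beside 0.01 over all tested genes, of which 51.5% were positive. None of the 6 passed the adjusted threshold (0% of all tested genes) or an unadjusted p under 0.05 (14.4%), and for none of the 10 did the groups fail to overlap (20.9% of all tested genes). The 95% intervals of the members reached from -4.27 to 2.99, so changes of many fold in either direction were not resolved at this spread. A p that misses the threshold does not show that levels were alike. Without replicate 2 of hairpin 2, 3 of 7 tested members were positive and the median was -0.098. Without replicate 3 of hairpin 2, all tested members were negative. In that fit 2 of 7 had an edgeR unadjusted p under 0.05, beside 2442 of all 14534 tested genes. DESeq2 called 303 genes in this comparison, and gave the 6 members no adjusted p because of their low level.

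For the mean of both hairpins against control, 3 of the 6 were positive and 3 negative (median -0.10 beside 0.01 over all tested genes, of which 52.2% were positive). No member passed the adjusted threshold (0% of all tested genes) or the unadjusted one (7.29%), and the groups overlapped for all 10 (2.97% of all tested genes did not overlap). For hairpin 2 against the libraries labelled hairpin 1, all 6 were negative, from -0.42 for Cd8b1 to -1.97 for Klrk1, with a median of -1.12 beside 0.0011 over all tested genes, of which 50.2% were positive. Again none passed the adjusted threshold (0% of all tested genes) or the unadjusted one (11.7%), and none of the 10 had groups apart (16.0% of all tested genes). Leaving out both libraries that stood apart turned 4 of these 6 positive. Leaving out replicate 3 of hairpin 2 gave 4 of 7 members an edgeR unadjusted p under 0.05, beside 2432 of all 14534 tested genes. The first 2 comparisons and the third share the control libraries.

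**Figure D2:**
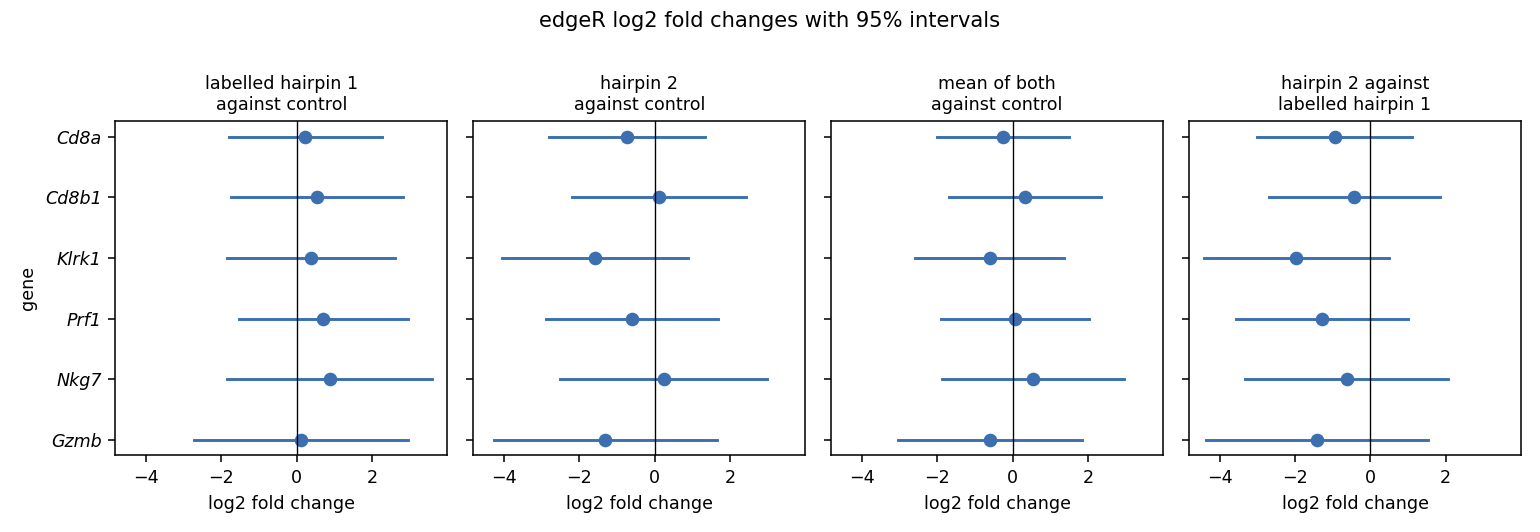
edgeR log2 fold change (x axis) of the 6 members that passed the filter (y axis) in 4 comparisons; points are estimates and lines are 95% intervals. Every interval crosses 0.

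The same libraries were high for nearly all of the genes. Replicate 1 labelled hairpin 1 was the highest of its group for 9 of the 10 members (all but Gzma), replicate 3 of hairpin 2 for all 10 and replicate 2 of control for 8 (all but Gzma and Ifng). Replicate 2 of hairpin 2 was the lowest of the 9 libraries, or tied for it, for 8 members, with Gzmk, Fasl and Klrk1 at 0. The 10 levels summed to 39.6, 19.5 and 5.61 CPM in the libraries labelled hairpin 1 (21.6 ± 17.1, SD, n = 3), to 5.08, 1.25 and 23.7 CPM with hairpin 2 (10.02 ± 12.03) and to 7.27, 31.2 and 8.14 CPM in control (15.5 ± 13.6). The highest library exceeded the lowest 7.06-fold in the libraries labelled hairpin 1, 19.0-fold with hairpin 2 and 4.29-fold in control. Without replicate 1 labelled hairpin 1 it was 3.47-fold there, without replicate 2 of hairpin 2 it was 4.67-fold with hairpin 2, and without replicate 2 of control it was 1.12-fold in control. The SD of log2 CPM within groups was 1.17 to 1.87 for the 6 tested members, against a median of 0.238 over all tested genes and 0.597 over the 2841 genes at a similar level.

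Some lists of genes that mark the cells around them were highest in the same libraries, and others were not. The summed level of 8 pan-leukocyte genes was 298, 145 and 114 CPM in the libraries labelled hairpin 1, 102, 65.2 and 281 CPM with hairpin 2 and 117, 259 and 101 CPM in control. The 10 macrophage and monocyte markers summed to 561, 177 and 248 CPM in the libraries labelled hairpin 1. They summed to 207, 47.1 and 658 CPM with hairpin 2 and to 216, 464 and 174 CPM in control. The 6 fibroblast and matrix markers summed to 3228, 239 and 729 CPM in the libraries labelled hairpin 1, 262, 432 and 1365 CPM with hairpin 2 and 196, 389 and 161 CPM in control. Replicate 1 labelled hairpin 1, replicate 3 of hairpin 2 and replicate 2 of control were the highest of their groups for most killer cell genes. The same held for the sums of the leukocyte, the macrophage and the fibroblast lists. The 6 endothelial markers also peaked in these libraries, at 683, 628 and 643 CPM. With hairpin 2 the neutrophil markers and the mast cell and basophil markers were instead highest in replicate 2, at 10.4 and 31.8 CPM. The mast cell and basophil sum was mostly Kit, at a mean of 17.2 CPM over the 9 libraries, beside 0.099 CPM for Mcpt8. The B and plasma cell markers were level in replicates 2 and 3 of hairpin 2, at 2.14 and 2.13 CPM. Replicate 2 of hairpin 2, with the fewest killer cell transcripts, also had the most globin. The part of these cells, and of globin, in the levels of the 10 genes was not tested.

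**Figure D3:**
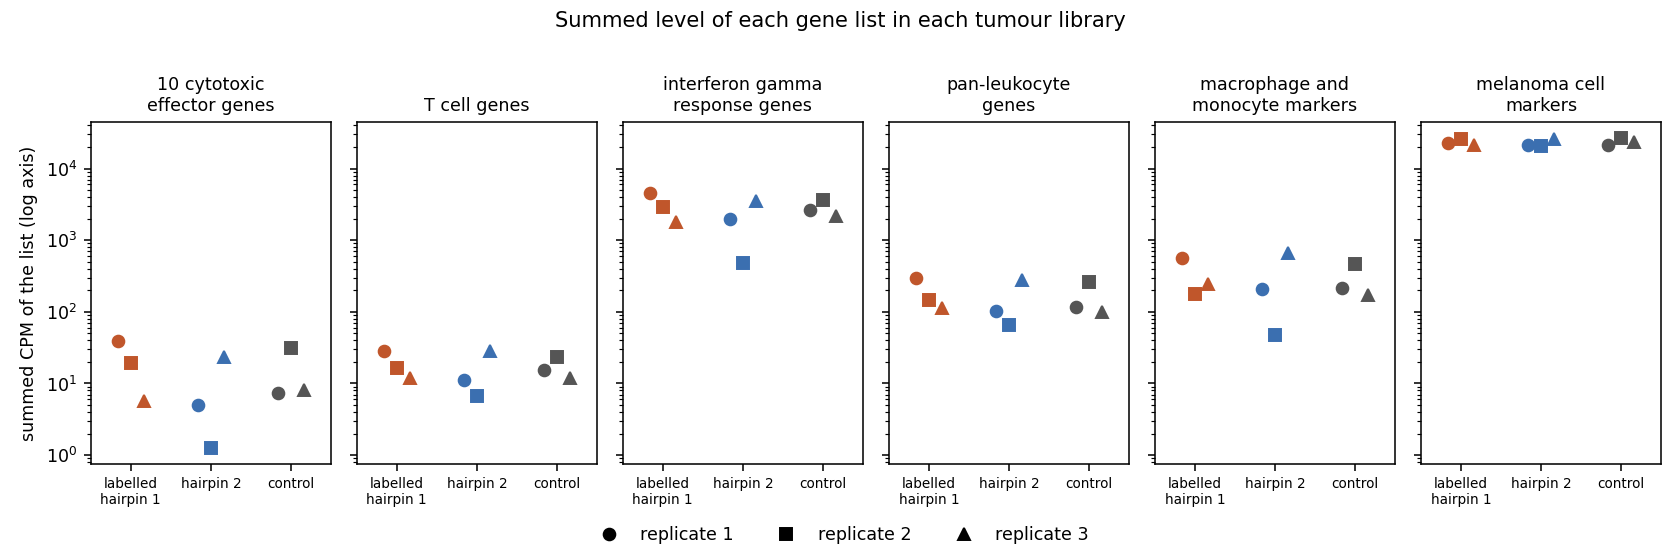
Summed CPM (y axis, log scale) of the 10 effector genes and of 5 gene lists in each library, by group on the x axis; point shapes give the replicate number. The effector genes, T cell genes, interferon gamma response genes, leukocyte genes and macrophage markers peak in the same library of each group. The melanoma markers stay between 20450 and 26901 CPM. They peak in that library with hairpin 2 and in control, but in replicate 2 among the libraries labelled hairpin 1.

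The T cell list of 14 genes (the CD3 chains and proximal signalling genes among them) summed to 28.4, 16.4 and 11.9 CPM in the libraries labelled hairpin 1, 11.3, 6.79 and 28.5 CPM with hairpin 2 and 15.4, 23.4 and 11.9 CPM in control. Of the 13 tested, 0 passed the threshold in any comparison. The 10 members stood at 1.39, 1.19 and 0.473 times the T cell genes in the libraries labelled hairpin 1, at 0.448, 0.184 and 0.833 times with hairpin 2 and at 0.473, 1.33 and 0.682 times in control. Lck and Lat held 4.35 CPM together in replicate 2 of hairpin 2, where Cd3e was at 0. Without them the ratios were 2.01, 3.19 and 1.06 in the libraries labelled hairpin 1, 1.33, 0.512 and 1.23 with hairpin 2 and 1.09, 2.06 and 1.26 in control. On that scale replicate 2 labelled hairpin 1 was the highest and replicate 2 of hairpin 2 the lowest, and the groups overlapped. These ratios were chosen after the values were seen and were not tested.

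Natural killer cells share the effector genes, and their own markers were scarce as well. Ncr1, which encodes NKp46, lay at no more than 0.25 CPM and Klrb1c at no more than 0.37 CPM in any library. Cd244a reached 1.42 CPM, Klrc1 1.24 CPM and Klrd1 1.01 CPM, in the range of Klrk1 and Cd8b1, and all 3 were highest in the same library of each group as those genes. Cd160, on the same list, was instead highest in replicate 2 labelled hairpin 1 (0.336 CPM) and replicate 1 of hairpin 2 (0.439 CPM, 7 counts). Eomes reached 0.97 CPM. T cells can also express several of these genes, and the part of natural killer cells in the members' levels was not tested. The 14 natural killer genes summed to 2.33 to 5.09 CPM in the libraries labelled hairpin 1, 0.536 to 4.38 CPM with hairpin 2 and 1.96 to 4.44 CPM in control. Only 3 of them passed the filter, and 0 passed the threshold. The mast cell proteases Cpa3, Mcpt4 and Cma1 were at 0 in most libraries and at no more than 0.32 CPM in any.

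Granzymes outside the list were measured too. Gzmc, Gzmd, Gzme, Gzmf and Gzmg lie beside Gzmb on chromosome 14 (56117626 to 56234656) and share 4.14% to 21.9% of their 50-base stretches with one another or with Gzmn, so single values are uncertain, while Gzmb shares none. Together they summed to 17.7, 17.6 and 0.694 CPM in the libraries labelled hairpin 1 (12.01 ± 9.80, SD, n = 3), to 2.26, 0.715 and 5.23 CPM with hairpin 2 (2.74 ± 2.30) and to 1.43, 15.2 and 0.535 CPM in control (5.73 ± 8.23). Replicate 2 labelled hairpin 1 stood level with replicate 1 for these 5, while its Gzmb was lower. Gzmf had an unadjusted p of 0.0339 for hairpin 2 against the libraries labelled hairpin 1 (log2 fold change -3.09, SE 1.24, edgeR adjusted p = 0.405). Gzmm, on chromosome 10, went another way and was highest in replicate 3 labelled hairpin 1, at 1.77 CPM.

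**Figure D4:**
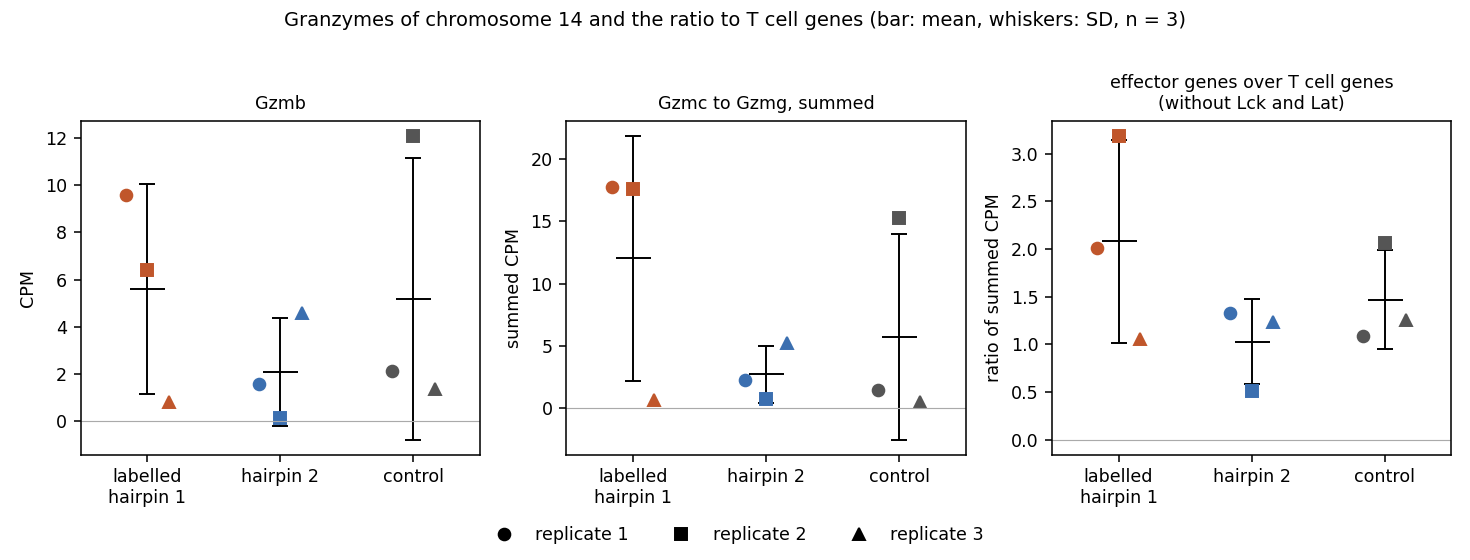
Left, Gzmb in CPM; middle, the summed CPM of Gzmc to Gzmg; right, the ratio of the summed effector genes to 12 T cell genes without Lck and Lat; each by group, with a point per library (shape: replicate number), the mean as a bar and the SD as whiskers (n = 3). Replicates 1 and 2 labelled hairpin 1 and replicate 2 of control hold most of the Gzmc to Gzmg counts.

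Of 18 further genes of the granule and death ligand machinery, 17 were tested and 0 passed the adjusted threshold in any comparison. Rab27a, which docks granules and also melanosomes at the membrane, had a log2 fold change of 0.46 (SE 0.11) with hairpin 2 against control, and Lyst, a regulator of lysosome-related organelles, had 0.71 (SE 0.18). Their unadjusted p were 0.00221 and 0.00275, with an edgeR adjusted p of 0.242 for both. Pigment cells use both genes as well, and which cells the counts came from was not tested.

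Genes that respond to interferon gamma had their highest sum in the same library of each group as the killer cell genes. Their 16 levels summed to 4516, 2896 and 1813 CPM in the libraries labelled hairpin 1, 1972, 479 and 3530 CPM with hairpin 2 and 2657, 3672 and 2169 CPM in control. Not every such gene followed the sum. With hairpin 2 Cxcl10 was higher in replicate 1 (30.2 CPM) than in replicate 3 (29.4 CPM). In control Ciita was higher in replicate 1 (12.9 CPM) than in replicate 2 (11.3 CPM). Of the 15 tested, 14 were negative with hairpin 2 against control (median -0.49 beside 0.01 over all tested genes), and 11 were positive in the libraries labelled hairpin 1 (median 0.16). Without replicate 2 of hairpin 2, 9 of the 15 were negative with hairpin 2 (median -0.064), and without replicate 1 labelled hairpin 1, 2 of the 15 were positive there (median -0.47). Irgm1, a GTPase that interferon gamma induces, stood at 435, 213 and 98.6 CPM in the libraries labelled hairpin 1, at 154, 34.1 and 267 CPM with hairpin 2 and at 228, 331 and 194 CPM in control. None passed the threshold. The 4 receptor and kinase genes of that pathway, tumour cell genes too, kept to sums of 254 to 279 CPM in the libraries labelled hairpin 1, 274 to 281 CPM with hairpin 2 and 245 to 267 CPM in control, and 0 of 4 passed.

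The 9 listed receptors for cytokines that drive killer cells summed to 81.6, 33.7 and 20.4 CPM in the libraries labelled hairpin 1, 15.04, 6.31 and 60.7 CPM with hairpin 2 and 24.0, 52.9 and 18.8 CPM in control. Il12rb1, a chain of the interleukin 12 receptor, made up much of this, at 51.7, 20.02 and 9.21 CPM in the libraries labelled hairpin 1, 8.27, 1.13 and 26.4 CPM with hairpin 2 and 12.9, 26.8 and 10.04 CPM in control. Its log2 fold change was 0.71 (SE 1.02) in the libraries labelled hairpin 1 and -0.47 (SE 1.03) with hairpin 2, each against control, and none of the 7 tested receptors passed. Of the 8 tested transcription factors of effector lymphocytes none passed. The 11 listed factors summed to 216, 175 and 129 CPM in the libraries labelled hairpin 1 and 178, 214 and 176 CPM in control. With hairpin 2 they summed to 190, 188 and 169 CPM, lowest in replicate 3, whereas the members were highest there. Zeb2, Id2 and Tcf7 held most of these sums, at means of 86.8, 57.6 and 25.6 CPM over the 9 libraries. The sums therefore do not show how scarcer factors such as Runx3 moved, and which cells the counts came from was not tested. Runx3, a RUNX factor of CD8 T cells, stood at 6.27, 1.81 and 1.32 CPM in the libraries labelled hairpin 1, at 0.31, 0.54 and 3.71 CPM with hairpin 2 and at 1.43, 3.85 and 1.07 CPM in control.

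Per kilobase of the longest transcript, the members kept a similar order in the 3 groups. In the libraries labelled hairpin 1, Gzmb led at 3.90 ± 3.09 CPM per kilobase (SD, n = 3), before Prf1 at 2.85 ± 2.14 and Nkg7 at 2.83 ± 3.06. With hairpin 2, Nkg7 stood at 1.83 ± 2.23, Gzmb at 1.45 ± 1.58 and Prf1 at 1.16 ± 1.30. In control the values were 3.62 ± 4.16 for Gzmb, 1.76 ± 1.38 for Prf1 and 1.56 ± 1.47 for Nkg7. Cd8a and Cd8b1 followed in each group, between 0.422 and 0.919 CPM per kilobase, and Fasl was the lowest, at 0.126, 0.0733 and 0.0440 CPM per kilobase in the libraries labelled hairpin 1, hairpin 2 and control. The ranges of mean ± SD overlapped between neighbours in this order, and the order was not tested within libraries. Prf1 took 26.6% to 34.8% of the 10 genes' counts in every library, while Gzmb took 9.52% to 38.7%.

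Il18bp, H2-T23, Slfn2 and Oasl2 were among the 5 genes whose centred log2 CPM lay closest to the mean profile of the 6 tested members over the 9 libraries. Their root mean square differences were 0.284, 0.333, 0.344 and 0.348 on the log2 scale, among 14187 genes compared. Il18bp, which encodes a secreted inhibitor of interleukin 18, stood at 39.4, 15.4 and 8.96 CPM in the libraries labelled hairpin 1, at 6.77, 2.32 and 25.1 CPM with hairpin 2 and at 11.9, 24.6 and 13.1 CPM in control. Its highest library in each group was the one that was highest for most members, and the groups overlapped. The likeness is a description of these 9 libraries, which share depth and tissue. By the same measure Csf1r, of the macrophage and monocyte list, ranked 138, Cd3e 177 and Ptprc 215.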

How the data were processed

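TRIzol was used to extract tumour RNA, and libraries were read on an Illumina instrument, per the labels' protocols. The authors deposited whole-number counts per gene symbol, a column for each library. Per the submitters' processing notes, the tools include STAR 2.7.0d and Cufflinks; the builds listed, GRCh38 and hg38, are human, while the symbols are of mouse. The sources used here do not give the counter, its annotation or its use of strand. Coordinates and transcript lengths are from GENCODE M21 (GRCm38) and promoters from RefSeq.

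Differences in counts were tested by edgeR 4.0.16 (R 4.3.3) with TMM scaling and its robust quasi-likelihood test. Low genes were removed by group with filterByExpr (minimum count 10, minimum total 15). All 9 libraries entered the same fit, and p-values were adjusted by Benjamini-Hochberg over 14193 genes, with a threshold of 0.05. CPM uses TMM-scaled library sizes. Permutation tests used log2(CPM + 0.1). Alternatives were other scalings and filters, DESeq2 1.42.0, voom of limma 3.58.1 with and without quality weights, a fit that was not robust, fits of the compared groups only, a replicate block, and leaving libraries out. The fit was tested on simulated counts. No sample was left out. The members and the 21 gene lists were chosen with earlier results of these data known. Genes named are the members, Fbxo38, up to 3 genes of each list by mean CPM, and the 5 nearest profiles, of which 1 is not reported here; other genes were picked after their values were seen. In the 21 lists, 0 genes passed in any comparison. Of 186 list genes, 182 were in the files.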

Additional observations from a re-analysis of the deposited data

How the results depend on the processing

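The members called stayed at 0 under every setting that gave them an adjusted p; DESeq2 gave them none for either comparison of hairpin 2. Of all genes, edgeR called 0 in each comparison. For hairpin 2 against control, DESeq2 called 303, edgeR with no filter 4, and leaving out 1 library gave 0 to 2. For hairpin 2 against the libraries labelled hairpin 1 these were 89, 2 and 0 to 1, and DESeq2 called 8 for the mean of both hairpins against control. The cause was not tested.

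Of the log2 fold changes of the 6 tested members and Fbxo38 under settings that keep all or drop both apart libraries, 299 kept their sign and 23 did not. Without both libraries that stood apart, the libraries labelled hairpin 1 against control gave -0.56 for Cd8a, -0.15 for Cd8b1, -0.55 for Gzmb, -1.06 for Klrk1, -0.53 for Nkg7 and -0.023 for Prf1. Hairpin 2 against the libraries labelled hairpin 1 then gave 0.28 for Cd8a, 0.73 for Cd8b1, 0.023 for Klrk1 and 1.29 for Nkg7, and the mean gave -0.063 for Prf1. With limma-voom, hairpin 2 against control gave -0.57 for Cd8b1 and -0.28 for Nkg7, and the mean gave -0.046 for Cd8b1 and -0.22 for Prf1. With quality weights, Klrk1 gave -0.31 in the libraries labelled hairpin 1, hairpin 2 gave -1.08 for Cd8b1 and -0.74 for Nkg7, and the mean gave -0.50 for Cd8b1, -0.32 for Nkg7 and -0.42 for Prf1.

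Leaving out 1 library in turn kept the sign of 216 and changed that of 36. For the libraries labelled hairpin 1 against control the ranges were -0.56 to 0.96 for Cd8a, -0.15 to 1.25 for Cd8b1, -0.55 to 1.66 for Gzmb, -1.06 to 1.04 for Klrk1, -0.53 to 1.91 for Nkg7, -0.024 to 1.55 for Prf1 and -0.39 to 0.026 for Fbxo38. For hairpin 2 against control they were -2.09 to 0.81 for Cd8b1, -2.62 to 0.23 for Gzmb, -1.45 to 1.27 for Nkg7 and -2.04 to 0.25 for Prf1. For hairpin 2 against the libraries labelled hairpin 1 they were -2.63 to 0.24 for Cd8b1 and -2.32 to 0.74 for Nkg7. For the mean they were -1.23 to 0.47 for Cd8a, -0.78 to 1.03 for Cd8b1, -1.25 to 0.94 for Gzmb, -1.60 to 0.054 for Klrk1, -0.29 to 1.59 for Nkg7 and -0.67 to 0.90 for Prf1.

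Replicate numbers did not pair the libraries: correlations of same-numbered deviations ran from -0.41 to 0.14, and 0 of 9 libraries correlated best with their own number. With the replicate block, 0 members and 0 genes were called in each comparison, and hairpin 2 against control gave -0.13 for Cd8b1 and -0.0091 for Nkg7. In replicate 2 of hairpin 2 each member held 0 to 7 counts, so counting error is wide there, and 4 of the 10 genes were below the filter. Scaling moved the median of all genes by under 0.1.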
